A study of Mus musculus with 2 samples.

Results

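The miR-106b-25 cluster is a group of 3 miRNA hairpins, Mir106b, Mir93 and Mir25, that lie inside the host gene Mcm7. They are 3 of the 1174 mouse miRNA genes with a Mir symbol in the annotation used, and were taken as members because they are the miRNA genes of Mcm7. The study sequenced small RNAs from cultures of the mouse embryonic stem cell line J1 (strain 129S4/SvJae), treated for 6 h with 1 µM SC1 or a matching volume of DMSO, to look for miRNAs that SC1 regulates. The cells were adapted to gelatin, no feeder cells are named in the labels, and both cultures received 1000 U/mL LIF, the cytokine that maintains mouse embryonic stem cells. SC1, also called pluripotin, inhibits the signalling proteins RasGAP and ERK1. Each condition had 1 library, so no value below has a replicate error, and intervals (exact Clopper-Pearson, 95%) cover counting error only.

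The 2 deposited lists hold different RNA lengths. The DMSO list held 18870345 reads in tags (distinct sequences) of 18 to 44 nt, and the SC1 list held 1275599 reads in tags of 3 to 17 nt. Treatment and tag length therefore cannot be told apart. No difference between the treatments is given for any arm: full-length forms are described from DMSO and 15 to 17 nt forms from SC1. In DMSO, 7 miRNAs from miR-290a to miR-295, markers of mouse embryonic stem cells, together took 29.0% of the mature miRNA reads. Markers of other cell types took far smaller shares: fibroblast miRNAs (3 counted) took 0.141%, neural miRNAs (2 counted) 0.241% and muscle miRNAs (2 counted) 0.140%. Some planned markers of fibroblasts, muscle and blood were not among those counted. The blood miRNA miR-142 took 0.0123% and the liver miRNA miR-122 took 0.00254%.

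A miRNA gene is transcribed as part of a longer RNA. Drosha cuts a hairpin out of that RNA, and Dicer removes the loop, leaving a duplex of a 5p and a 3p arm, one of which is usually kept by an Argonaute protein. The seed, bases 2 to 8 of the mature miRNA, is the main part that pairs with target mRNAs. The cluster is a paralog of miR-17-92 and miR-106a-363. All 3 clusters are known for promoting the cell cycle, and the AAAGUGC seed of miR-106b-5p and miR-93-5p is also that of miR-17-5p and miR-20a-5p. Mcm7 itself encodes a subunit of the replicative DNA helicase.

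The hairpins are shown first, since every value below refers to a place in them. They are RefSeq sequences of GRCm38.p6, 5′ to 3′, with the mature arms in capitals (5p first, then 3p).
Mir106b: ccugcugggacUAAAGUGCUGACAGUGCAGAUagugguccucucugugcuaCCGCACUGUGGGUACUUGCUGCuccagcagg
Mir93: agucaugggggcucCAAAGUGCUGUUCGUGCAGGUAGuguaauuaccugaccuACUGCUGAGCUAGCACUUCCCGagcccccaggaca
Mir25: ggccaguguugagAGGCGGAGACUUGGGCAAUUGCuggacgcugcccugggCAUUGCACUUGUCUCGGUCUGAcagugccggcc

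All 3 hairpins are on the minus strand of chromosome 5 in GRCm38: Mir106b at chr5:138165737-138165818 (82 nt), Mir93 at chr5:138165523-138165610 (88 nt) and Mir25 at chr5:138165321-138165404 (84 nt). In the direction of transcription Mir106b comes first, then Mir93 after 126 bases and Mir25 after a further 118 bases, so the cluster spans 498 bases. All 3 lie in intron 13 of the coding transcript Mcm7-201, which has 15 exons, and in intron 8 of the coding transcript Mcm7-208. Mir93 and Mir25 also lie within exon 1 of the retained-intron transcript Mcm7-202, which does not contain Mir106b in full. All 3 RefSeq hairpins were identical to the annotated GENCODE sequences.

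The 6 mature arms are shown with their seeds in capitals, because the seeds sort them into families.
miR-106b-5p: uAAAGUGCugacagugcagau
miR-93-5p: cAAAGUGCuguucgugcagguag
miR-25-3p: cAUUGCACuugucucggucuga
miR-106b-3p: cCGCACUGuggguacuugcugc
miR-93-3p: aCUGCUGAgcuagcacuucccg
miR-25-5p: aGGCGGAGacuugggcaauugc
miR-106b-5p and miR-93-5p have the same seed and are identical at 16 of 21 positions when aligned from their 5′ ends without gaps. The other 4 arms have 4 different seeds.

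The hairpins were read almost entirely at their annotated arms. In DMSO, 75 tags with 127317 reads of 18 to 26 nt matched a member hairpin exactly, and 0 of these tags matched the hairpin of another miRNA. Of these reads, 127198 fell in the window of an arm (start within 2 nt and end within 4 nt of its most abundant tag). Only 8 reads started elsewhere: 3 in Mir106b, 2 in Mir93 and 3 in Mir25. The loop of Mir106b gave 3 reads, all of 1 tag of 18 nt. A single read of 27 to 44 nt matched a member, in Mir25. Outside the hairpins, 102 DMSO reads of 18 to 31 nt matched coding transcripts of Mcm7, and 0 did when the tags were reversed. Small RNA reads from Mcm7 exons were thus few beside those of the hairpins.

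**Figure D1:**
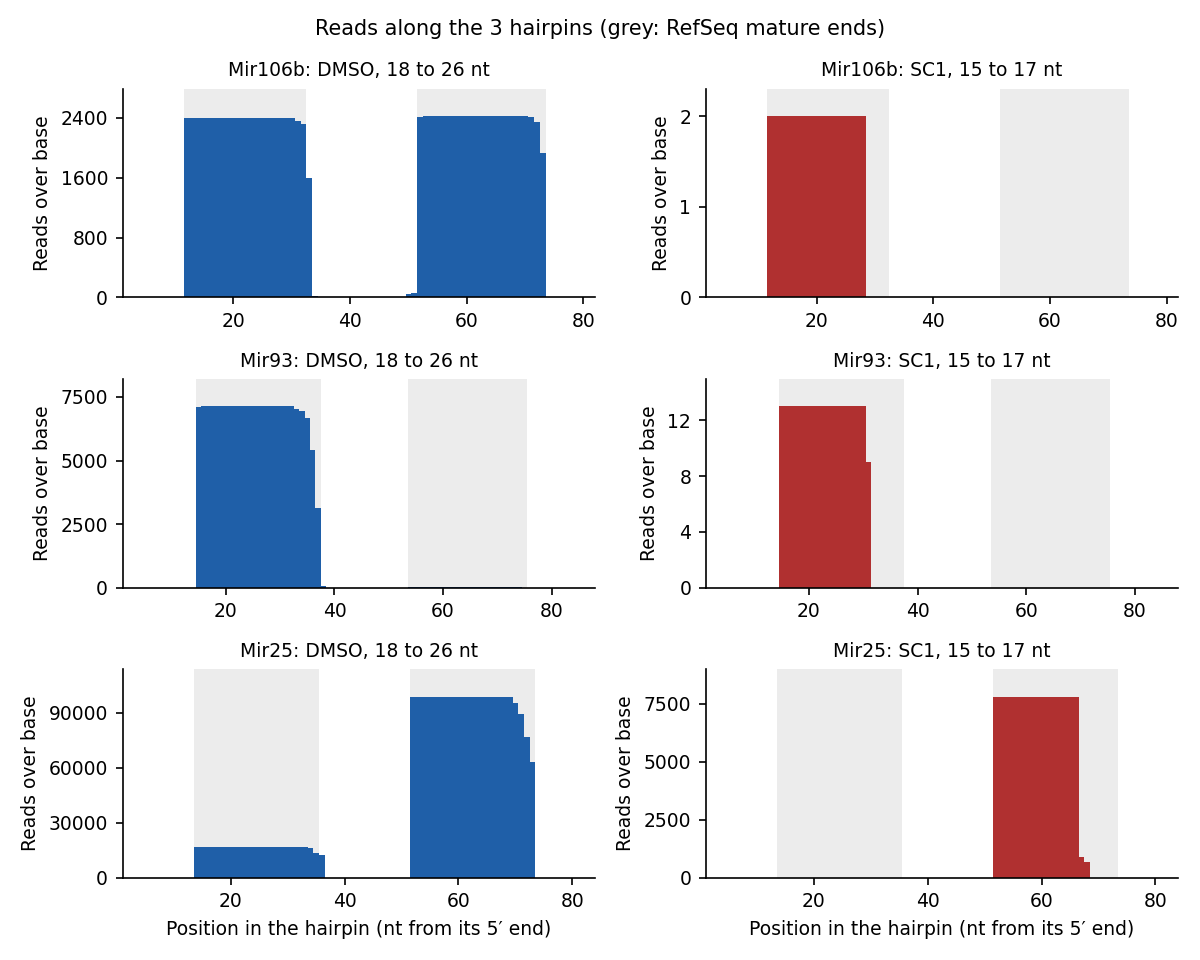
Reads over each base of the 3 hairpins (vertical axis, reads, linear and scaled per panel) against position in the hairpin (nt from its 5′ end), from DMSO tags of 18 to 26 nt (left, blue) and SC1 tags of 15 to 17 nt (right, red); grey marks the RefSeq mature arms. DMSO reads fill both arms of Mir106b and Mir25 but only the 5p arm of Mir93, and nearly all SC1 reads lie at the start of the 3p arm of Mir25.

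The cluster took 127198 of the 2167148 DMSO reads assigned to mature miRNAs, a share of 5.87% (5.84 to 5.90). Mir25 gave 90.7% (90.5 to 90.8) of these reads, Mir93 5.53% (5.40 to 5.65) and Mir106b 3.79% (3.69 to 3.90). The 3 hairpins of 1 host gene were therefore far from equal in reads, and the order of levels was the reverse of their order along the transcript. Levels below are in RPM, reads in each 1000000 reads assigned to mature miRNAs.

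miR-25-3p was the most abundant of the 6 arms. It had 98736 reads, or 45560 RPM (45283 to 45839), and ranked 5 of 484 mature miRNAs. miR-25-5p, from the other arm of the same hairpin, had 16605 reads, or 7662 RPM (7546 to 7779), and ranked 31. Both arms of Mir25 were thus above every arm of the other 2 hairpins.

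miR-93-5p had 7022 reads, or 3240 RPM (3165 to 3317), and ranked 47. miR-106b-3p had 2423 reads, or 1118 RPM (1074 to 1163), and ranked 91. miR-106b-5p had 2404 reads, or 1109 RPM (1065 to 1155), and ranked 92. The intervals of both Mir106b arms overlapped, so these neighbours in the order could not be separated at this depth, whereas every other pair of neighbouring arms was separated beyond counting error. miR-93-3p had 8 reads, or 3.69 RPM (1.59 to 7.27), the last of the 484. It was counted only because its RefSeq ends were used, since no tag of it reached the 10 reads required of other arms.

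As ratios, miR-25-3p had 14.1 times (13.7 to 14.4) the reads of miR-93-5p and 41.1 times (39.4 to 42.8) those of miR-106b-5p. miR-93-5p had 2.92 times (2.79 to 3.06) the reads of miR-106b-5p, the arm with which it shares its seed. Even miR-25-5p exceeded miR-93-5p, by 2.36 times (2.30 to 2.43).

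The members were set beside the arms of all loci with the same seeds. Reads were counted by arm under the seed of its RefSeq mature form, whatever the start of each read. For the AAAGUGC seed, 14111 DMSO reads (6511 RPM) were counted. The miR-106b-25 cluster gave 66.8% (66.0 to 67.6) of them, miR-17-92 22.8% (22.1 to 23.5) and miR-106a-363 10.4% (9.86 to 10.9). miR-93-5p alone gave 49.8% of the reads with this seed. Next to miR-106b-5p at 1109 RPM came miR-17-5p at 1006 RPM, miR-20a-5p at 481 RPM, miR-20b-5p at 405 RPM and miR-106a-5p at 270 RPM. miR-6383, with the same seed, had 0 counted reads. The arms of the Mcm7 cluster thus carried most of the reads of arms with this seed. Shifted reads of other arms that carry it were not counted.

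For the AUUGCAC seed, 139182 DMSO reads (64224 RPM) were counted, and miR-25-3p gave 70.9% (70.7 to 71.2). miR-92a-3p, made from a locus in each of the other 2 clusters, gave 23.0% (22.8 to 23.2), at 14764 RPM. miR-25-3p had 3.09 times (3.05 to 3.13) its reads. The level of miR-92b-3p was 2508 RPM, that of miR-363-3p 1282 RPM and that of miR-32-5p 109 RPM, while miR-367-3p had 0 counted reads.

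The relatives that carried most of these reads are printed with the shared seed in capitals.
miR-17-5p: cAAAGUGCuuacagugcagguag
miR-20a-5p: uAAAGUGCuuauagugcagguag
miR-92a-3p: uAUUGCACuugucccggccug
miR-92b-3p: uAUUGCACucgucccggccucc
miR-363-3p: aAUUGCACgguauccaucugua
miR-106b-5p was identical to miR-17-5p and to miR-20a-5p at 18 of 21 positions, more than to its cluster mate miR-93-5p. miR-93-5p was identical to miR-17-5p at 19 of 23 positions. miR-25-3p was identical to miR-92a-3p at 18 of 21 positions, to miR-92b-3p at 16 of 22 and to miR-363-3p at 9 of 22. These differences kept every member tag of 18 to 26 nt apart from the hairpins of the relatives.

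**Figure D2:**
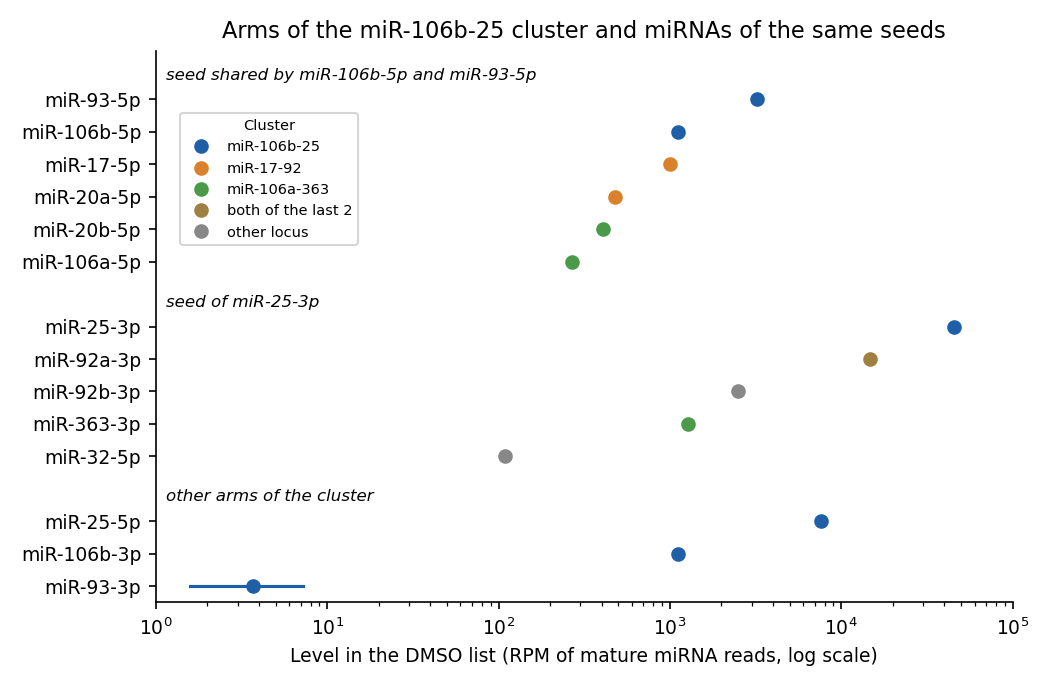
Level in the DMSO list (horizontal axis, RPM of mature miRNA reads, log scale) of the 6 arms of the cluster (blue) and of miRNAs with the same seeds, coloured by cluster; bars are exact 95% binomial intervals, mostly narrower than the points. miR-25-3p at 45560 RPM and miR-93-5p at 3240 RPM head their seed groups, and miR-93-3p is at 3.69 RPM.

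The 3 hairpins used their arms in 3 different ways. Mir106b gave both arms in nearly equal number, with 2404 reads of 5p and 2423 of 3p, a 5p share of 49.8% (48.4 to 51.2) and a 5p to 3p ratio of 0.992 (0.937 to 1.05). Mir93 gave its 5p arm almost alone, with 7022 reads against 8, a 5p share of 99.9% (99.8 to 100) and a ratio of 878 (445 to 2034). Mir25 favoured its 3p arm, with 16605 reads of 5p against 98736 of 3p, a 5p share of 14.4% (14.2 to 14.6) and 5.95 reads of 3p for each of 5p. The direction of arm use thus differed between hairpins of 1 transcript.

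Over the 100 hairpins with both arms and at least 1000 reads, the more abundant arm took a median of 93.5% (quartiles 79.0 and 98.0). Ordered from the most even, Mir106b was the first of the 100, Mir25 stood at 33 and Mir93 at 95. Mir93 was in this set only through the RefSeq ends of its 3p arm, which had 8 reads. Other hairpins with an arm lacking a tag of 10 reads were left out, such as Mir20a (1043 reads of 5p, 0 counted of 3p). The median, the ranks and the counts given here therefore omit hairpins that may be as uneven as Mir93. The arm taking the larger share held under 60% in 4 hairpins, which were Mir106b, Mir30c-2, Mir708 and Mir17 (56.1% 5p). It held over 99% in 22, Mir93 among them. Many of these hairpins are near-identical copies: in 38 of the 100, most reads were shared with another hairpin. Without them the median over the remaining 62 was 91.9%, and Mir106b was still the most even.

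The hairpins at like places in the paralogous clusters were also uneven among themselves. Mir17, which carries the seed of Mir106b, gave 2180 reads of 5p and 1703 of 3p. Mir106a gave 585 reads of 5p and 31 of 3p, and Mir20b gave 877 and 33. Mir92-1 gave 4.67% from 5p and Mir92-2 18.6%, with 20840 reads common to both, while Mir363 gave 86.9% from 5p although its AUUGCAC seed is on 3p. Among hairpins with that seed, the 14.4% of Mir25 therefore lay between the values of Mir92-1 and Mir92-2.

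**Figure D3:**
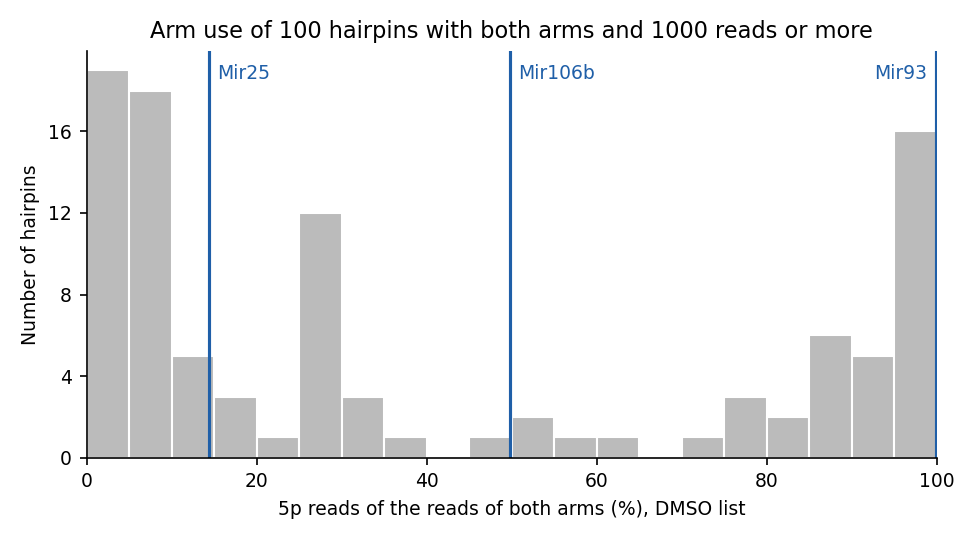
Number of hairpins (vertical axis) by the share of their reads that came from the 5p arm (horizontal axis, %, bins of 5) for the 100 hairpins with both arms and at least 1000 DMSO reads; blue lines mark the members. Most hairpins lie near either end, where Mir93 (99.9%) stands, while Mir106b (49.8%) lies at the middle and Mir25 (14.4%) towards the 3p side. Mir93 entered the set through the RefSeq ends of its 3p arm, and other hairpins with an arm lacking a tag of 10 reads are not shown.

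In the predicted fold of each hairpin, the most abundant 5p and 3p tags were set against each other. For miR-93-3p the RefSeq form took the place of the tag. The overhangs that Drosha and Dicer are known to leave were read from these pairs. At the end away from the loop, the 3p tag extended 2 nt past the 5p tag in Mir106b and Mir25. In Mir93 the RefSeq 3p form extended 1 nt. At the loop end, the 5p tag extended 3 nt in Mir25 and 2 nt in Mir93, and ended 1 nt short in Mir106b. These ends come from a minimum free energy fold and, except for miR-93-3p, from the single most abundant tag of each arm. The paired base used for the reading lay 1 nt away at the end away from the loop in Mir106b and Mir93. It also lay 1 nt away at the loop end in Mir25. The most abundant tag of miR-93-3p, with 4 reads, ended 1 nt past the RefSeq form. The 1 nt of Mir93 thus rests on the RefSeq end and not on a tag.

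Starts were sharply defined, and every most abundant tag began at the RefSeq start. The main start held 99.9% of reads for miR-106b-5p, 99.8% for miR-25-5p, 99.6% for miR-93-5p and 99.5% for miR-25-3p. For miR-106b-3p it held 97.6% (96.9 to 98.1). Over the 128 arms with at least 1000 DMSO reads the median was 98.7% (quartiles 94.9 and 99.6), so 4 of these 5 member arms were above the median and miR-106b-3p was below it. For miR-93-3p, 7 of the 8 reads began at the RefSeq start.

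A shifted start changes which bases form the seed, so the main and the most frequent shifted tags are printed with bases 2 to 8 of each in capitals.
miR-106b-3p, main: cCGCACTGtgggtacttgctgc
miR-106b-3p, start 2 nt earlier: tACCGCACtgtgggtacttgct
miR-25-3p, main: cATTGCACttgtctcggtctga
miR-25-3p, start 1 nt later: aTTGCACTtgtctcggtctga
For miR-106b-3p, 44 reads (1.82%, 1.32 to 2.43) began 2 nt before the main start, 19 of them as the tag printed. For miR-25-3p, 433 reads (0.439%, 0.398 to 0.482) began 1 nt after it, 291 of them as the tag printed. For miR-93-5p, 29 reads (0.407%, 0.273 to 0.584) began 1 nt late, a share whose interval overlapped that of miR-25-3p. Such late starts were rarer than those of miR-25-3p in miR-25-5p (28 reads, 0.169%) and miR-106b-5p (3 reads, 0.125%).

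The 3′ ends varied far more than the starts, and each arm had its own ladder of lengths. miR-106b-5p was most frequent at 22 nt with 1577 reads (65.6%), followed by 21 nt with 730, and had 45 reads at 20 nt, 30 at 19 nt and 10 at 18 nt. miR-106b-3p was the narrowest, with 1922 reads (79.3%) at 22 nt, 410 at 21 nt and 54 at 20 nt. miR-93-5p was the broadest, with 3045 reads (42.7%) at 23 nt, 2273 at 22 nt, 1290 at 21 nt, 276 at 20 nt, 67 at 19 nt and 109 at 18 nt. Its 18 nt form was thus more frequent than its 19 nt form, although both were a small part of the arm.

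miR-25-5p was most frequent at 23 nt with 12262 reads (73.8%), and had more reads at 21 nt (2582) than at 22 nt (1197). The peak at 21 nt made its ladder the only one of the 5 abundant member arms with a dip directly below its most frequent length. miR-25-3p peaked at 22 nt with 63037 reads (63.8%) and fell step by step through 13513 at 21 nt, 12451 at 20 nt, 6509 at 19 nt and 3212 at 18 nt. Above 22 nt it had 13 reads at 23 nt and 1 at 24 nt.

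Over the 128 arms, the most frequent length was 22 nt in 58, 23 nt in 28 and 21 nt in 14, and it held a median of 66.3% of an arm's reads. Member arms lay on both sides of that median, from miR-93-5p at 42.7% to miR-106b-3p at 79.3%. The main tags of miR-106b-5p and miR-25-5p ended 1 nt past the RefSeq 3′ end, as did the most abundant tag of miR-93-3p (4 reads). The exact RefSeq form had 727 reads for miR-106b-5p, 1899 for miR-106b-3p, 3045 for miR-93-5p, 0 for miR-93-3p, 1175 for miR-25-5p and 63032 for miR-25-3p.

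Length ladders were compared by the total variation distance, the percent of reads that would have to move to another length to make the ladders equal, over 9 lengths in 1 library. The ladder nearest to that of miR-106b-3p was miR-301-5p at 2.53%, then miR-487b-3p at 4.25% and miR-744-5p at 4.38%. The ladder nearest to that of miR-93-5p was miR-23b-3p at 6.60%, and second came its seed relative miR-20a-5p at 14.3%. For miR-25-3p it was miR-130a-3p at 10.9%, followed by miR-15b-5p at 16.4% and miR-26a-5p at 18.1%. Median distances to the 123 other arms were 51.3%, 48.8% and 46.2%. Within the cluster, the arms of Mir106b were 14.9% apart, miR-106b-5p and miR-25-3p 18.9%, and the seed mates miR-106b-5p and miR-93-5p 46.3%. A shared seed and transcript thus did not go with a shared ladder in that pair.

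Seed relatives had ladders of their own. miR-17-5p, miR-20a-5p, miR-20b-5p and miR-106a-5p were most frequent at 23 nt, as was miR-93-5p, with 53.9% to 81.9% of their reads there, while miR-106b-5p was most frequent at 22 nt. miR-92a-3p was most frequent at 20 nt (49.3%), unlike miR-25-3p, and miR-92b-3p (44.2%) and miR-363-3p (43.0%) were most frequent at 22 nt.

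Bases that the hairpin does not encode were counted at the 3′ ends of tags starting at the main start of an arm (tails of up to 3 nt). Tails of A only were on 9.97% (8.87 to 11.2) of miR-106b-3p reads, 5.03% (4.24 to 5.91) of miR-106b-5p, 3.61% (3.20 to 4.05) of miR-93-5p, 2.37% (2.14 to 2.60) of miR-25-5p and 0.628% (0.580 to 0.679) of miR-25-3p. Tails of T only (U in the RNA) were on 6.52% (5.63 to 7.51) of miR-106b-5p, 1.88% of miR-93-5p, 1.52% (1.44 to 1.59) of miR-25-3p, 1.22% of miR-106b-3p and 0.851% of miR-25-5p. Leaving out miR-93-3p, where 1 of 8 reads had such a tail, the arms of Mir106b were thus the most tailed of the members. Tails of miR-106b-3p were mainly A, and those of miR-106b-5p were of both bases. For miR-25-3p more T than A was counted, but its main tag ends in A. An A added to its 21 nt form therefore equals the main tag and was not counted, whereas a T there had 1201 reads. Past the full 22 nt, the tag with 1 added A had 456 reads and that with 1 added T had 284. The main tags of miR-106b-5p (A) and miR-25-5p (T) hide an added base in the same way. Medians over 114 arms were 2.98% for A and 1.59% for T. Taking A and T tails together, miR-106b-5p (11.6%) and miR-106b-3p (11.2%) lay below the upper quartile of 13.2%, and miR-25-3p (2.14%) lay below the lower quartile of 2.40%.

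The most frequent tailed tags are printed with the added base in capitals.
miR-106b-3p: ccgcactgtgggtacttgctgA
miR-106b-5p: taaagtgctgacagtgcagataT
miR-106b-5p: taaagtgctgacagtgcagataA
miR-93-5p: caaagtgctgttcgtgcaggtaT
miR-25-5p: aggcggagacttgggcaattgctA
miR-25-3p: cattgcacttgtctcggtctgT
In this order they had 137, 134, 116, 125, 354 and 1201 reads. Those of miR-106b-3p, miR-93-5p and miR-25-3p replace the last base of the main tag and so could also be read as a substitution. For miR-25-3p, changes of the last base to A or T had 1201 reads, against at most 48 at another position. These counts were 169 against 3 for miR-106b-3p and 228 against 4 for miR-93-5p. They were closer for miR-106b-5p (29 against 5) and miR-25-5p (23 against 7). Whether such tags are tails or substitutions was not tested.

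**Figure D4:**
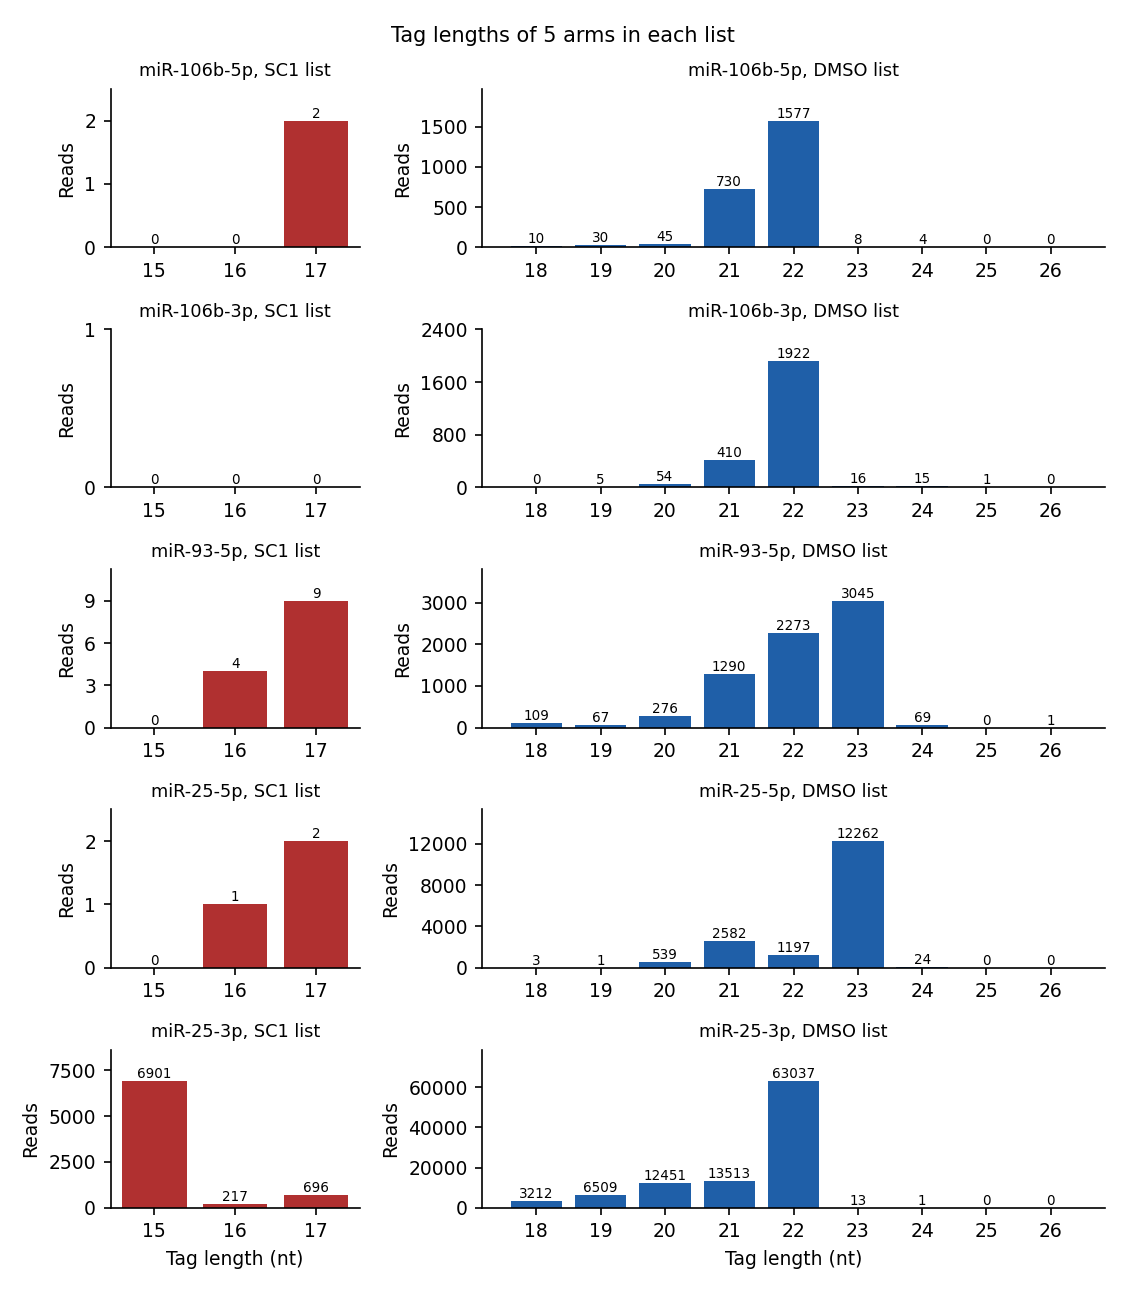
Reads (vertical axis, linear and scaled per panel) by tag length (horizontal axis, nt) of 5 member arms in the SC1 list (left, red, 15 to 17 nt) and in the DMSO list (right, blue, 18 to 26 nt), with the count on each bar; the 2 lists are different libraries and lengths and are not to be joined into 1 ladder. miR-25-3p stands at 63037 reads of 22 nt in DMSO and at 6901 reads of 15 nt in SC1, where the other arms have between 0 and 9 reads at any length.

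At the short end of the DMSO list, 18 nt forms made up 2.79% (2.69 to 2.89) of the Mir25 reads, 1.54% (1.27 to 1.85) of the Mir93 reads and 0.269% (0.143 to 0.460) of the Mir106b reads. By arm, the share was 3.25% (3.14 to 3.37) for miR-25-3p, 1.53% (1.26 to 1.84) for miR-93-5p, 0.416% (0.200 to 0.764) for miR-106b-5p and 0.0181% (0.00373 to 0.0528) for miR-25-5p. miR-106b-3p had 0 such reads of 2423, which allows a share of up to 0.124% (3 counts). Over the 309 arms with at least 100 DMSO reads, the median was 0.218% (upper quartile 1.40), and miR-25-3p ranked 49 from the highest, miR-93-5p 72 and miR-106b-5p 129. The share of 18 nt forms thus differed widely between both arms of Mir25.

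Short forms in the SC1 list came almost wholly from 1 arm of the cluster. Tags of 15 to 17 nt that match a member exactly had 7836 reads: 7821 in Mir25, 13 in Mir93 and 2 in Mir106b. At arm starts, miR-25-3p had 7814 reads, miR-93-5p 13, miR-25-5p 3 and miR-106b-5p 2. miR-106b-3p and miR-93-3p had 0, which allows up to 0.00569% of the 52698 short miRNA reads (3 counts). miR-25-3p thus made up 99.8% (99.6 to 99.9) of the short reads of the cluster, although in DMSO it was 77.6% of its full-length reads. These shares come from different libraries and length classes, so their difference was not tested.

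Of all 52698 SC1 reads of 15 to 17 nt at the start of a mature miRNA, miR-25-3p held 14.8% (14.5 to 15.1). Only 1 of the 228 mature names had more, miR-293-3p with 26611 reads. Its seed relatives were rare in the same library, with 82 short reads of miR-92a-3p, 35 of miR-92b-3p, 10 of miR-363-3p and 0 of miR-32-5p. Of the 7941 short reads with the AUUGCAC seed, 7814 were thus miR-25-3p.

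By length, miR-25-3p had 6901 reads of 15 nt, 217 of 16 nt and 696 of 17 nt. The main tag of each length is printed because they differ only in their last bases, with the 18 nt tag of the DMSO list after them and the bases past 15 nt in capitals.
15 nt, SC1: cattgcacttgtctc
16 nt, SC1: cattgcacttgtctcG
17 nt, SC1: cattgcacttgtctcGG
18 nt, DMSO: cattgcacttgtctcGGT
The 15 nt tag had 6900 reads, the 16 nt tag 214 and the 17 nt tag 690, and the 18 nt tag had 3204 DMSO reads. A single sequence that ends after base 15 of the mature miRNA thus held 6900 of the 7814 miR-25-3p reads of 15 to 17 nt. The 16 nt form was the least frequent of the 3 lengths. Among annotated transcripts, the 15 nt sequence occurred only in those of Mir25 and Mcm7, so it was not shared with miR-92a-3p or another miRNA.

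The 15 nt form was 88.3% (87.6 to 89.0) of the short miR-25-3p reads. Over the 28 arms with at least 100 short SC1 reads, the median share of 15 nt was 10.4% (quartiles 3.64 and 20.6), and miR-25-3p had the highest. The next were miR-431-3p at 38.3%, miR-293-3p at 30.9% and miR-182-5p at 27.7%. The most frequent length was 15 nt in miR-25-3p alone, 16 nt in 10 arms and 17 nt in 17 arms. Tags shared between names were split equally, so these arms are not all separate. At each length miR-27a-3p and miR-27b-3p had equal counts, as did miR-103-3p and miR-107-3p. The miR-25-3p relative miR-92a-3p, with fewer short reads than the minimum, had 22 reads of 15 nt, 21 of 16 nt and 39 of 17 nt. miR-93-5p had 0 reads of 15 nt, 4 of 16 nt and 9 of 17 nt.

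**Figure D5:**
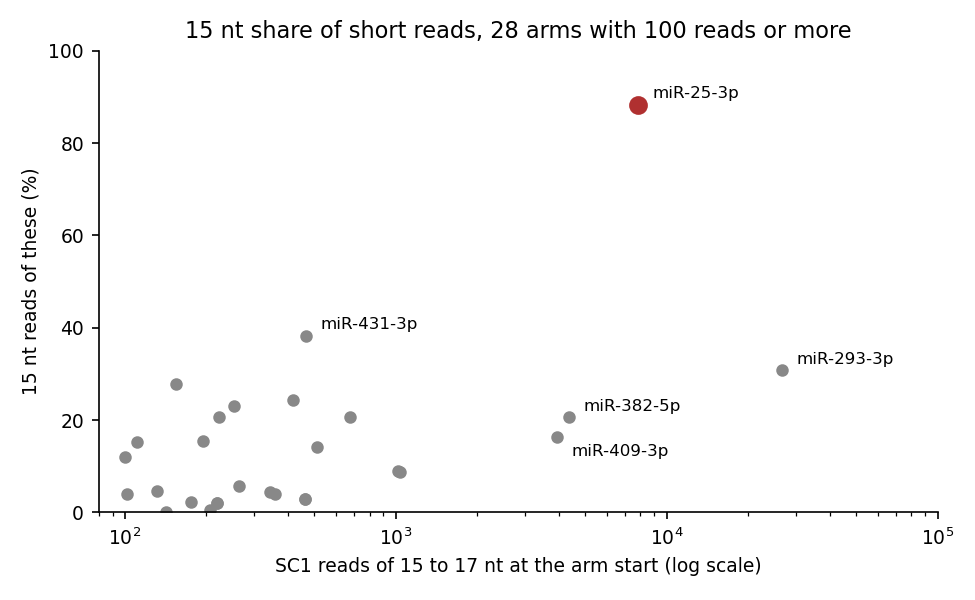
Share of 15 nt among SC1 reads of 15 to 17 nt (vertical axis, %) against the number of those reads (horizontal axis, log scale) for the 28 arms with at least 100 such reads; each point is 1 arm. miR-25-3p (red) lies at 88.3%, and the other 27 arms lie at 38.3% or lower.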

How the data were processed

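Small RNAs of 1 DMSO and 1 SC1 library were analysed. Per library, the authors deposited distinct tags with their raw read counts, not normalized. A DMSO total line (18870345, the sum of the counts) was dropped. The submitters' processing notes name mm9 as build. Which adapter, trimming, length filter and aligner were used is not given in the sources used here.

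Tags were matched exactly and in sense to the 1174 Mir hairpins of GENCODE M21 (GRCm38). Mature sequences (6) and hairpins (3) of the members were matched by name in RefSeq tables of GRCm38.p6. Arms (590) were placed by the DMSO tag of 18 to 26 nt with the most reads, of which at least 10 were required; miR-93-3p, which had none, was given its RefSeq ends. For levels, tags started within 2 nt and ended within 4 nt of that tag, and tags shared between names were split equally. Ladders, starts and SC1 tags used the start alone. miR-92 of the annotation is written miR-92a. Intervals are Clopper-Pearson, 95%, and a count of 0 allows 3 counts; without molecular identifiers both cover counting error only. The lists' totals are those of a length class, not library depth.

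No test was made, since each condition had 1 library. The named miRNAs are the 6 member arms, the arms of both paralogous clusters and of the same seeds, and the 3 nearest length ladders among arms with at least 1000 reads of each hairpin's main arm; others with the highest values were named after they were seen. Members and lists were chosen with earlier results of these data known. Alternatives were other read minimums, shared tags left out, main tags only, any match on an arm's side, removal of 3′ A or T, distinct tags, another denominator, 17 nt or main-start tags only, and RefSeq ends. Python 3.11.15, numpy 2.4.6, scipy 1.17.1, matplotlib 3.10.9 and RNAfold 2.7.2 were used.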

Additional observations from a re-analysis of the deposited data

Results flagged for a closer look

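SC1 tags shorter than 15 nt were outside the counts above, but some of them match the start of miR-25-3p. Tags of 11 to 14 nt identical to its first bases had 1944 reads, against 0 reads of the same sequences reversed. By length these were 60 reads of 11 nt, 133 of 12 nt, 794 of 13 nt and 957 of 14 nt, below the 6900 of 15 nt. Starts of 8 to 10 nt had 1, 0 and 4 reads. miR-93-5p had 1 read of 11 nt, and miR-106b-5p and miR-106b-3p had 0 at 8 to 14 nt. Sequences this short can occur by chance in other RNAs, which the reversed sequences do not measure, and their origin was not tested.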

How the results depend on the processing

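Values rest on 1 library per condition, so they carry no replicate error, and the members' levels were not compared between treatments. No paired analysis was possible because each group had 1 library and no result came from a test. With tags of at least 10 reads the nearly equal arms of Mir106b changed order (5p share 50.03%), within counting error. Counted by distinct tags, miR-106b-3p (3645 in each 1000000 tags) and miR-93-5p (2962) passed miR-25-5p (2051), below miR-25-3p (3873). The cluster's 5.87% of DMSO mature miRNA reads became 5.96% with shared tags left out, 5.47% after removal of 3′ A or T, 1.55% by distinct tags and 0.674% of all reads, and 6.56% with RefSeq ends, an alternative chosen after seeing the data, as was dropping the limit on tag ends. Counting the most abundant tag of each arm alone, the 5p share was 45.4% for Mir106b, 100% for Mir93 and 16.3% for Mir25; by distinct tags it was 33.3%, 72.2% and 34.6%. With tags of at least 10 reads, Mir93 was at 100%. The 18 nt share of miR-25-3p was 11.8% by distinct tags. The cluster's 14.9% of short SC1 miRNA reads became 15.9% without shared tags, 2.15% by distinct tags, 15.8% at the main start only and 5.19% with 17 nt tags only. The cause of these changes was not tested. Of 112 values of single arms, 76 moved by less than counting error and 36 by more, among them all 6 levels when scaled to all reads. Tailed shares were not recomputed. Depth limits miR-93-3p (8 reads) and the short forms of every arm except miR-25-3p (0 to 13 reads).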
